A study of Homo sapiens with 6 samples.

Results

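Human chromosome 19 carries long runs of neighbouring zinc finger genes, and the genes described here are the protein-coding rows of that chromosome whose symbol is ZNF followed by a digit. There were 239 such genes among 30949 rows of the deposited count table. RNA was sequenced from 6 cultures of wild-type astrocytes made from induced pluripotent stem cells of WTC11, an established human line. The cells floated as aggregates inside alginate capsules in neural medium. For 48 hours, 3 cultures were given ITC, which combines IL-1 alpha with TNF alpha and the complement protein C1q, and 3 were given vehicle. All cultures come from 1 parental line, and each batch of capsules was split between both treatments, so the libraries measure the spread between cultures of that line.

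Most of the proteins encoded by these genes carry arrays of C2H2 fingers, each of which holds a zinc ion and contacts a few DNA bases. Many also carry a KRAB domain, which binds the corepressor TRIM28. TRIM28 in turn brings the histone methyltransferase SETDB1, HP1 proteins and the NuRD deacetylase complex to the bound site. Many KRAB zinc finger proteins bind transposable elements and keep them silent, and the gene family grew by tandem duplication, which left related genes side by side. The deposited table annotates 230 of the 239 genes to the zf-C2H2 transcription factor family. A letter pattern for the fingers, run on proteins translated from GENCODE 29 transcripts, found a median of 12 fingers per protein, with a range of 0 to 32. A letter pattern for the KRAB A box was found in 198 of 238 translated proteins.

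The genes were ordered by start position on GRCh38, as the deposited table gives it, and a new cluster was begun wherever the next gene lay more than 1 Mb away. This gave 8 clusters of at least 5 genes, which hold 224 of the 239 genes, and they are numbered here from the short-arm end. Cluster 1 (chr19:7069444-9793180) has 16 genes, cluster 2 (chr19:11483427-12640098) has 26 and cluster 3 (chr19:19668796-24129961) has 28, all on the short arm. On the long arm, cluster 4 (chr19:34677639-34964049) has 5 genes, cluster 5 (chr19:36182060-37817300) has 26 and cluster 6 (chr19:43525497-45076588) has 24. Cluster 7 (chr19:51571298-53580269) has 40 genes and cluster 8 (chr19:55476332-58481230) has 59. The genes lie on both strands, 128 on the plus and 111 on the minus strand.

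Related promoters mark 2 of these clusters, and the sequences below are shown because they are what the genes of cluster 3, where the most genes fell after ITC, share. RefSeq start sites gave a window of 250 bases before the start for 212 of the 239 genes, and 179 of these starts lay within 1 kb of the deposited 5′ end. Among all runs of 8 letters, the one with the greatest excess in these windows over other genes' windows was TCCAATCA, read on both strands (reverse complement TGATTGGA). It was present in 48 of 212 windows (22.6%), against 461 of 34856 windows of all other genes (1.32%). Each zinc finger gene kept 1 window, with the start nearest the deposited 5′ end, while every window of the other genes was counted. Shares of other genes' windows given below for other letters were counted in the same way. The octamer was found in 25 of 25 windows of cluster 3 and in 20 of 25 of cluster 2. The remaining 3 windows belong to ZNF555, ZNF57 and ZNF77, neighbours outside the clusters near the short-arm end. None of the 14 windows of cluster 1 and none of the 135 windows of clusters 4 to 8 held it. In 47 of the 48 windows it reads as written on the strand of the gene, at a median of 50 bases before the start (range 15 to 114). Below are the upstream windows on GRCh38.p14 of ZNF714 (chr19:21081953-21082202, plus strand) and ZNF85 (chr19:20923001-20923250, plus strand), which both fell. With them are ZNF91 of the same cluster (chr19:23395472-23395721, minus strand), which was not called, ZNF491 of cluster 2 (chr19:11798273-11798522, plus strand), which fell, and ZNF865 of cluster 8 (chr19:55605397-55605646, plus strand), the 1 gene that rose. Capitals mark the octamer.
ZNF714: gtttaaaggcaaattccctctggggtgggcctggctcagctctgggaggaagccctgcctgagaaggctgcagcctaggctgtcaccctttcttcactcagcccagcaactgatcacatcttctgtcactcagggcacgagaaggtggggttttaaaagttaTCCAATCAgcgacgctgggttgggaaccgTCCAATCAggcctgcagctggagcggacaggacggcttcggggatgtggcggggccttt
ZNF85: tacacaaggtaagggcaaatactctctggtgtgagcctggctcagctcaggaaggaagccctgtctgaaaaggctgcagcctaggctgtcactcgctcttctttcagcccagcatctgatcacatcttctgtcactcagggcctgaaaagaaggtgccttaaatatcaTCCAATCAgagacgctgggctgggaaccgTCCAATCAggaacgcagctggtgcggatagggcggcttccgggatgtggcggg
ZNF91: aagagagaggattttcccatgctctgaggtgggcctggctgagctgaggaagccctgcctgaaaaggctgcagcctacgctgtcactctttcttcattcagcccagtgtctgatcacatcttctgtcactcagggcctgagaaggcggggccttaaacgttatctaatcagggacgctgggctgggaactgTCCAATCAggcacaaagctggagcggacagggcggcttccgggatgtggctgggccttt
ZNF491: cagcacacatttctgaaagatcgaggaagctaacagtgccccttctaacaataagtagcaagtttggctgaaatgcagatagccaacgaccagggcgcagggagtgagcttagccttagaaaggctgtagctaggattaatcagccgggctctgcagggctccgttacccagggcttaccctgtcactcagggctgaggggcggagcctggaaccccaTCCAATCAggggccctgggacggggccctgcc
ZNF865: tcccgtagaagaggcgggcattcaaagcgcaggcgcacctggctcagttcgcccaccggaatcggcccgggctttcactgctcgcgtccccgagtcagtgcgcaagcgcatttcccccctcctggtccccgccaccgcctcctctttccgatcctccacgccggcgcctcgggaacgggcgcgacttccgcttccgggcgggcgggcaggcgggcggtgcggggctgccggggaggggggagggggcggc

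The windows of ZNF714 and ZNF85 each hold the octamer in duplicate, with 29 bases between the first letters of the copies. In cluster 3, 13 of 25 windows had 2 copies, and 12 windows had 1. The spacing was 29 bases in 12 windows, and it was 28 bases in the window of ZNF93. No window of cluster 2 had more than 1 copy. Over all windows 16 had 2 or more copies, and those not in cluster 3 belong to ZNF555, ZNF57 and ZNF77. The octamer contains the CCAAT box letters CCAAT, so counts of the 2 overlap. CCAAT alone, on either strand, was in 108 of 212 windows (50.9%) and in 31.9% of other genes' windows. The GC box letters GGGCGG were in 65.6% of windows, against 42.5% of the others. The letters CCGGAAG, the core bound by ETS factors, were in 62 windows (29.2%), against 8.38% of the others. They were in 15 of the 25 windows of cluster 3 and in 27 of the 54 windows of cluster 8. These matches describe the letters of the windows and are not evidence of a bound factor.

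The clusters were expressed at low to moderate levels. Mean FPKM over the 6 libraries, which scales reads by gene length and library size, had a median of 1.69 over the 239 genes, against 3.43 over all protein-coding genes, and 175 genes reached 1 FPKM. Total counts per library were 18623454, 19327421 and 17808993 in ITC and 20203844, 17398921 and 29941685 in vehicle. The 239 genes took 0.225%, 0.270% and 0.283% of these counts in ITC and 0.307%, 0.327% and 0.362% in vehicle, so every ITC library lay below every vehicle library. After scaling to CPM (a library-scaled count) by TMM, which allows for a shift of RNA into other genes, their sums were 2539, 2900 and 2976 CPM in ITC and 2876, 2982 and 3359 CPM in vehicle, and these ranges overlap. ITC replicate 1 had the lowest sum and vehicle replicate 3 the highest. Both stand apart from the other libraries of their groups, and results that turn on them are given below without them. Less RNA per cell and fewer cells of an expressing type cannot be told apart in these bulk samples.

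ITC is known to make astrocytes reactive, and the comparison asks which zinc finger genes differ after it. The cultures did respond, with 6 of 6 genes of a cytokine response list higher in ITC, among them ICAM1, SOD2 and CCL2. Of the 239 genes, 227 passed the filter on low counts, and the other 12 had 2 to 67 counts in all libraries together. Most of the zinc finger genes were not called, and those that were called nearly all fell. By the quasi-likelihood test of edgeR, adjusted by the Benjamini-Hochberg method over all 16756 tested genes, 31 of the 227 fell (13.7%) and 1 rose (0.441%). Over all tested genes 39.4% were called, 19% lower and 20.4% higher in ITC, so the share that fell was under the background and the share that rose was far under it. For the falls this order depends on the processing. With no filter on low counts 14.2% of the zinc finger genes fell, against 12% of all 30949 genes, a background that then includes rows with few counts. With library size scaling the shares were 28.6% and 28.7%. With TMM and the filter, the share that fell was not above that of protein-coding genes in any range of mean level (given below). The median log2 fold change was -0.16 over the 227 genes and -0.01 over all tested genes. The groups did not overlap for 68 of the 227 genes (30.0%), 57 of them lower and 11 higher in ITC, against 50.1% of all tested genes. Among the 32 called genes, 28 had groups that did not overlap. The authors' deposited table, at an adjusted p under 0.05, has 28 of these genes lower (11.7%) and 1 higher in ITC. Over all its 30949 rows 10.1% were lower and 11.3% higher. Those rows include the ones that the filter on low counts drops, so these shares cannot be set against the 19% and 20.4% of tested genes.

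For most of the other genes the data bound the change. Of 195 genes that were not called, 162 had a 95% interval of the fold change inside 2-fold in both directions, 22 had an interval that reached a 2-fold fall and 11 one that reached a 2-fold rise. At an unadjusted p under 0.05 the counts were 45 lower and 7 higher. Called falls were at least 2-fold for 14 genes, and the smallest called fall was 0.51 on the log2 scale (ZNF649, not called without ITC replicate 1, ITC replicate 3 or vehicle replicate 3). Without ITC replicate 1, 16 genes fell, 15 of them among the 31, and the median was -0.08. The rises were 5 without ITC replicate 3 and 3 without vehicle replicate 3. With the replicate number as a block, 52 genes fell and 9 rose. In all 15 other fits, which changed the scaling, the filter, the model or the libraries, 14 of the 31 fell, 8 of them in cluster 3. With the groups scaled by library size only, which moves the median of all genes to -0.24, 65 genes fell and 0 rose. Under that scaling all tested genes split into 2282 higher and 4804 lower in ITC, against 3423 and 3176 with TMM, and under upper quartile scaling into 2662 and 4059. The zinc finger median was 0.15 below that of all genes under each of these scalings. The gap was 0.07 without ITC replicate 1 and 0.10 without vehicle replicate 3, and with no filter on low counts the zinc finger median was 0.02 above that of all genes.

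**Figure D1:**
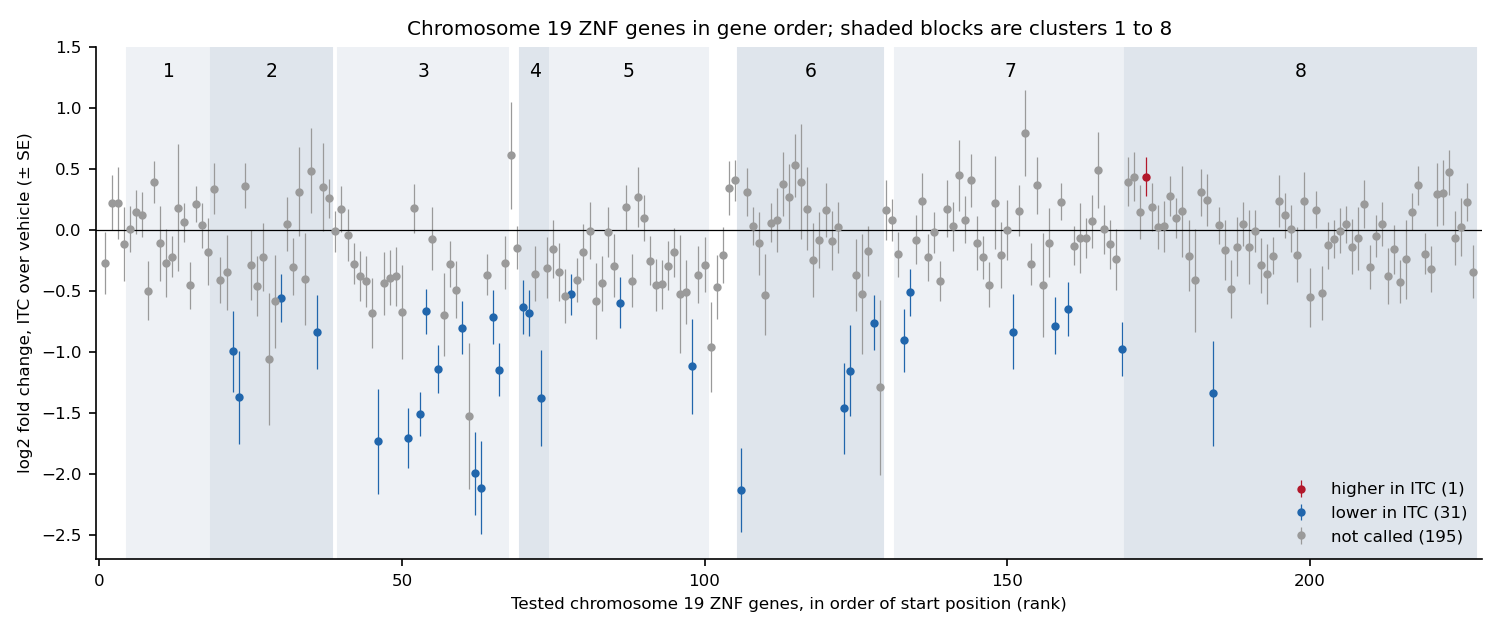
Log2 fold change of ITC over vehicle (vertical axis, ± SE) for the 227 tested genes in order of start position (horizontal axis, rank). Blue points are the 31 genes that fell, red the 1 that rose and grey the 195 not called, and shaded blocks are clusters 1 to 8. Of the 31 blue points, 10 lie in cluster 3 and 1 in cluster 8, which also holds the red point.

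Cluster 3, in the short-arm bands next to the centromere, held the most falls. All 28 of its genes were tested, 10 fell (35.7%, against 19% of all tested genes), 0 rose, and 26 had a negative log2 fold change. The median was -0.58. Its genes summed to 227, 315 and 338 CPM in ITC and 370, 402 and 497 CPM in vehicle, a ratio of group means of 0.693, and the groups do not overlap. The genes that fell lie between start positions 20077994 (ZNF90) and 23739195 (ZNF681), interleaved with genes that were not called. Without ITC replicate 1, which had the lowest sum, the cluster's median was -0.33 and 8 of its genes fell. Without vehicle replicate 3 the median was -0.43 and 10 fell.

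ZNF714 (ENSG00000160352, chr19:21082159-21125270) fell with the smallest p of the cluster. It had 9.16, 10.8 and 12.3 CPM in ITC and 27.4, 28.98 and 35.5 CPM in vehicle. Every ITC library was under every vehicle library by more than 2-fold, and the log2 fold change was -1.51 ± 0.18 (SE, adjusted p = 9.99e-06). ZNF85 (ENSG00000105750, chr19:20923222-20950697) encodes a KRAB protein with 15 fingers and had 3.22, 3.61 and 2.60 CPM in ITC and 9.32, 8.49 and 12.9 CPM in vehicle. The groups are apart here too, at -1.71 ± 0.25 (adjusted p = 6.48e-05). On the scale per length, ZNF714 averaged 1.37 ± 0.18 FPKM in ITC and 3.89 ± 0.46 in vehicle, and ZNF85 0.694 ± 0.118 FPKM in ITC and 2.24 ± 0.47 in vehicle (SD, n = 3 each).

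The other named falls of cluster 3 were of genes near or below 5 CPM. ZNF724 (ENSG00000196081, chr19:23221599-23250390) had 0.546, 1.17 and 1.00 CPM in ITC and 2.78, 4.25 and 4.80 CPM in vehicle, a log2 fold change of -2.11 ± 0.38 (adjusted p = 0.000433). Of the 100-base windows of its transcripts, 41.9% also occur in another gene, so its reads may have been split with a copy and its value is uncertain. ZNF730 (ENSG00000183850, chr19:23075210-23147219) had 0.668, 1.61 and 1.18 CPM in ITC and 4.36, 5.03 and 4.55 CPM in vehicle, a log2 fold change of -1.997 ± 0.341 (adjusted p = 0.000296). ZNF90 (ENSG00000213988, chr19:20077994-20127076) had 0.728, 0.4998 and 1.12 CPM in ITC and 1.90, 2.15 and 3.71 CPM in vehicle, a log2 fold change of -1.73 ± 0.43 (adjusted p = 0.00541). In each of the 3 genes the groups do not overlap, and the vehicle libraries spread more than the ITC libraries in ZNF724 and ZNF90. The remaining falls, named after their values were seen, were ZNF681 (-1.15 ± 0.22), ZNF738 (-1.14 ± 0.20), ZNF43 (-0.80 ± 0.22), ZNF675 (-0.71 ± 0.22) and ZNF431 (-0.67 ± 0.19). ZNF675 and ZNF431 were not called without ITC replicate 1. ZNF675, also known as TIZ, is known to bind TRAF6, an adaptor of interleukin 1 receptors.

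**Figure D2:**
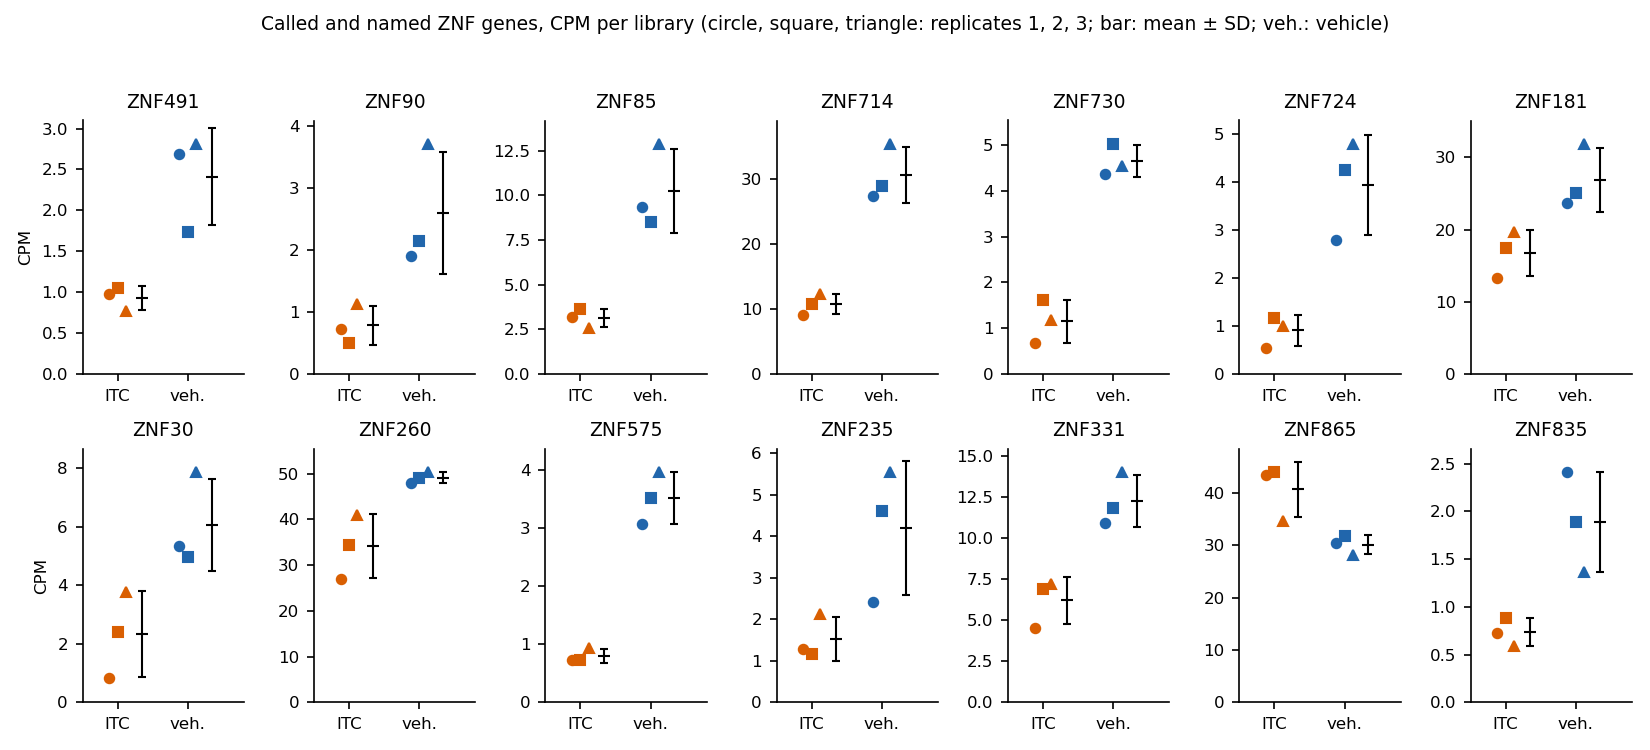
CPM (vertical axis, linear from 0) in each library for the 14 called genes named by rule, with ITC on the left and vehicle on the right of each panel. Circles, squares and triangles are replicates 1, 2 and 3, and bars are means ± SD. ITC lies below vehicle in every library for the 13 genes that fell and above it for ZNF865.

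ZNF91 and ZNF93, genes of cluster 3 with known targets, were chosen after their values were seen and were not called with TMM. ZNF91, which is known to repress SVA retrotransposons, had 29.3, 41.2 and 43.2 CPM in ITC and 46.0, 47.9 and 52.8 CPM in vehicle. The groups do not overlap, and the log2 fold change was -0.37 ± 0.17 (adjusted p = 0.1002). It was called lower under upper quartile scaling (adjusted p = 0.0312) and library size scaling (adjusted p = 0.0163). ZNF93, which is known to repress a family of LINE-1 elements, had 10.2, 11.8 and 13.4 CPM in ITC and 11.7, 16.2 and 19.4 CPM in vehicle. Its groups overlap, at -0.42 ± 0.21 (adjusted p = 0.127), and it was called lower under library size scaling (adjusted p = 0.0276) and in the fit that left out vehicle replicate 1 (adjusted p = 0.0254). The windows of both genes hold the octamer, 1 copy in ZNF91 and 2 in ZNF93. Within cluster 3, 7 of 13 genes with 2 copies fell and 2 of 12 with 1 copy fell, with medians of -0.68 and -0.43. Without ITC replicate 3, 8 genes with 2 copies and 4 with 1 copy fell, and without ITC replicate 1 the medians were -0.51 and -0.26. ZNF555, ZNF57 and ZNF77, outside the clusters, also have 2 or more copies, and none of them was called by edgeR with all 6 libraries. The split within cluster 3 was made after the values were seen and was not tested.

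Other transcripts inside the span of cluster 3 were tested beside the zinc finger genes. None of the 19 is protein-coding, 6 fell, 0 rose and their median was -0.89. Over all tested genes 19% fell, and the median of all tested genes was -0.01. Other genes in the spans of clusters 5 and 8 also had negative medians, -0.40 over 14 tested (2 fell, 0 rose) and -0.24 over 41 (6 fell, 0 rose). The 1 tested in cluster 4 was at -0.36. In clusters 1, 2, 6 and 7 such medians were 0.08, 0.02, 0.16 and 0.20. The falls, named after their values were seen, were LINC01224 (-3.96 ± 0.66), VN1R81P (-2.11 ± 0.50), AC010615.2 (-1.89 ± 0.46), AC139769.1 (-1.03 ± 0.30), ZNF826P (-0.84 ± 0.26) and RPSAP58 (-0.61 ± 0.20). They are a long intergenic RNA, a processed transcript and 4 pseudogenes, and pseudogenes can share reads with their parent genes. LINC01224, VN1R81P and AC010615.2 averaged only 1.18, 1.04 and 1.33 CPM. Below 2 CPM the median of all protein-coding genes was -0.39. AC139769.1, ZNF826P and RPSAP58 averaged 3.67, 5.56 and 25.3 CPM.

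Cluster 4, the small group at the start of the long-arm clusters, had 5 tested genes, of which 3 fell, with a median of -0.63. Its sums were 50.7, 64.9 and 78.8 CPM in ITC and 82.9, 95.2 and 125 CPM in vehicle, which do not overlap. ZNF181 (ENSG00000197841, chr19:34734155-34745378) had 13.3, 17.4 and 19.6 CPM in ITC and 23.6, 25.1 and 31.9 CPM in vehicle, a log2 fold change of -0.68 ± 0.19 (adjusted p = 0.0102). ZNF30 (ENSG00000168661, chr19:34926903-34945170) had 0.850, 2.39 and 3.78 CPM in ITC and 5.34, 4.98 and 7.86 CPM in vehicle, a log2 fold change of -1.38 ± 0.39 (adjusted p = 0.0125). Both genes encode KRAB proteins and their groups do not overlap, although the ITC libraries of ZNF30 differ among themselves by over 4-fold. ZNF302, the third fall, was at -0.63 ± 0.22 with groups that overlap, and it was not called without ITC replicate 1, ITC replicate 2 or vehicle replicate 3. In each of those fits 2 genes of the cluster fell. No window of this cluster holds the octamer.

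Clusters 2 and 5 had medians of -0.32 and -0.36 with fewer calls. In cluster 2, 4 of 20 tested genes fell, a share close to the 19% of all tested genes. They were led by ZNF491 (ENSG00000177599, chr19:11797667-11809622), which had 0.971, 1.06 and 0.767 CPM in ITC and 2.69, 1.73 and 2.82 CPM in vehicle. Its groups do not overlap, and its log2 fold change was -1.37 ± 0.38 (adjusted p = 0.0105). In cluster 5, 3 of 26 genes fell, and ZNF260 (ENSG00000254004, chr19:36510695-36528660) had 26.9, 34.4 and 41.0 CPM in ITC and 48.0, 49.1 and 50.4 CPM in vehicle. The vehicle libraries agree within 3 CPM while the ITC libraries spread, and the log2 fold change was -0.53 ± 0.17 (adjusted p = 0.0224). The call of ZNF260 was lost without ITC replicate 1, ITC replicate 2 or vehicle replicate 2, and cluster 5 then had 0 falls, while it had 5 without vehicle replicate 1. In cluster 2, 1 gene fell without ITC replicate 1, ITC replicate 2 or vehicle replicate 3, and 2 fell without vehicle replicate 2. Without ITC replicate 1 the medians were -0.14 in cluster 2 and -0.23 in cluster 5, and without vehicle replicate 3 that of cluster 2 was -0.17. The median of cluster 2 was -0.49 without vehicle replicate 1 and -0.50 without vehicle replicate 2. The sums of cluster 5 were 240, 332 and 372 CPM in ITC and 342, 377 and 459 CPM in vehicle, which overlap.

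In cluster 6 the falls stood among genes with small log2 fold changes. Its median was -0.09, and 4 of 24 genes fell (16.7%, against 19% of all tested genes). ZNF575 (ENSG00000176472, chr19:43525497-43536130) had the largest of the 31 falls, with 0.728, 0.722 and 0.944 CPM in ITC and 3.06, 3.51 and 3.96 CPM in vehicle. The groups are more than 3-fold apart, at -2.13 ± 0.35 (adjusted p = 0.000190). ZNF235 (ENSG00000159917, chr19:44228729-44305046) had 1.27, 1.17 and 2.12 CPM in ITC and 2.41, 4.61 and 5.54 CPM in vehicle, without overlap, at -1.46 ± 0.37 (adjusted p = 0.00637). The median of cluster 6 was 0.04 without ITC replicate 1 or vehicle replicate 3, and 3 genes fell in either fit. It was -0.19 without ITC replicate 3, -0.18 without vehicle replicate 1 and -0.20 without vehicle replicate 2. In cluster 7, 6 of 38 genes fell (15.8%) and the median was -0.09. That median was 0.02 without ITC replicate 1 and -0.14 without vehicle replicate 2. Without vehicle replicate 3 as many genes rose as fell, 3 each. In cluster 7, 2 genes fell and 1 rose without ITC replicate 1, and 2 fell and 0 rose without ITC replicate 2. ZNF331 (ENSG00000130844, chr19:53519527-53580269), known as an imprinted gene, had 4.55, 6.89 and 7.20 CPM in ITC and 10.9, 11.8 and 14.02 CPM in vehicle. Its groups do not overlap, at -0.98 ± 0.22 (adjusted p = 0.00271).

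Clusters 1 and 8 showed almost no calls. In cluster 1, 0 of 14 tested genes were called by edgeR, DESeq2 or limma-voom, and the median was 0.02. At an unadjusted p under 0.05 from edgeR, 1 of them was lower and 1 higher. After adjustment 2 genes fell and 1 rose without ITC replicate 3, and 1 fell without vehicle replicate 1. The median ranged from -0.06 to 0.02 without 1 library. Its sums were 254, 264 and 253.3 CPM in ITC and 248, 241 and 252.8 CPM in vehicle, with ITC just above vehicle. In cluster 8, the largest, 58 genes were tested, 1 fell, 1 rose and the median was 0.00. Its sums were 904, 889 and 866 CPM in ITC and 853, 866 and 834 CPM in vehicle, a ratio of 1.04, and the lowest ITC sum and the highest vehicle sum rounded to the same value. ZNF835 (ENSG00000127903, chr19:56661981-56671783) fell, with 0.728, 0.888 and 0.590 CPM in ITC and 2.41, 1.89 and 1.36 CPM in vehicle (log2 fold change -1.34 ± 0.43, adjusted p = 0.0226). That call held in 2 of the 6 fits without 1 library, those without ITC replicate 2 and without vehicle replicate 3. ZNF865 (ENSG00000261221, chr19:55605405-55617269) rose, with 43.5, 44.0 and 34.6 CPM in ITC and 30.4, 31.7 and 28.1 CPM in vehicle. Its groups do not overlap, at 0.44 ± 0.16 (adjusted p = 0.0380), and the call was lost under upper quartile scaling (adjusted p = 0.137) and in 5 of the 6 fits that left out 1 library. It held without ITC replicate 3, where 4 genes of the cluster rose. ZNF274, which is known to bring SETDB1 to the ends of zinc finger genes, lies in this cluster and was chosen for that role. It had 28.8, 28.0 and 29.5 CPM in ITC and 23.2, 25.1 and 18.9 CPM in vehicle, without overlap, and was not called (0.36 ± 0.16, adjusted p = 0.0879). Without ITC replicate 1 or vehicle replicate 2, 0 genes of the cluster fell, and 2 fell in the fits without ITC replicate 3, vehicle replicate 1 or vehicle replicate 3. The 14 tested genes outside the clusters had 0 calls by edgeR and a median of 0.04. At an unadjusted p under 0.05, 1 of them was lower and 1 higher, and DESeq2, limma-voom and the fits without ITC replicate 2, ITC replicate 3 or vehicle replicate 1 each called 1 lower. A difference between clusters was not tested, since genes of 1 cluster are related and are not replicates.

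**Figure D3:**
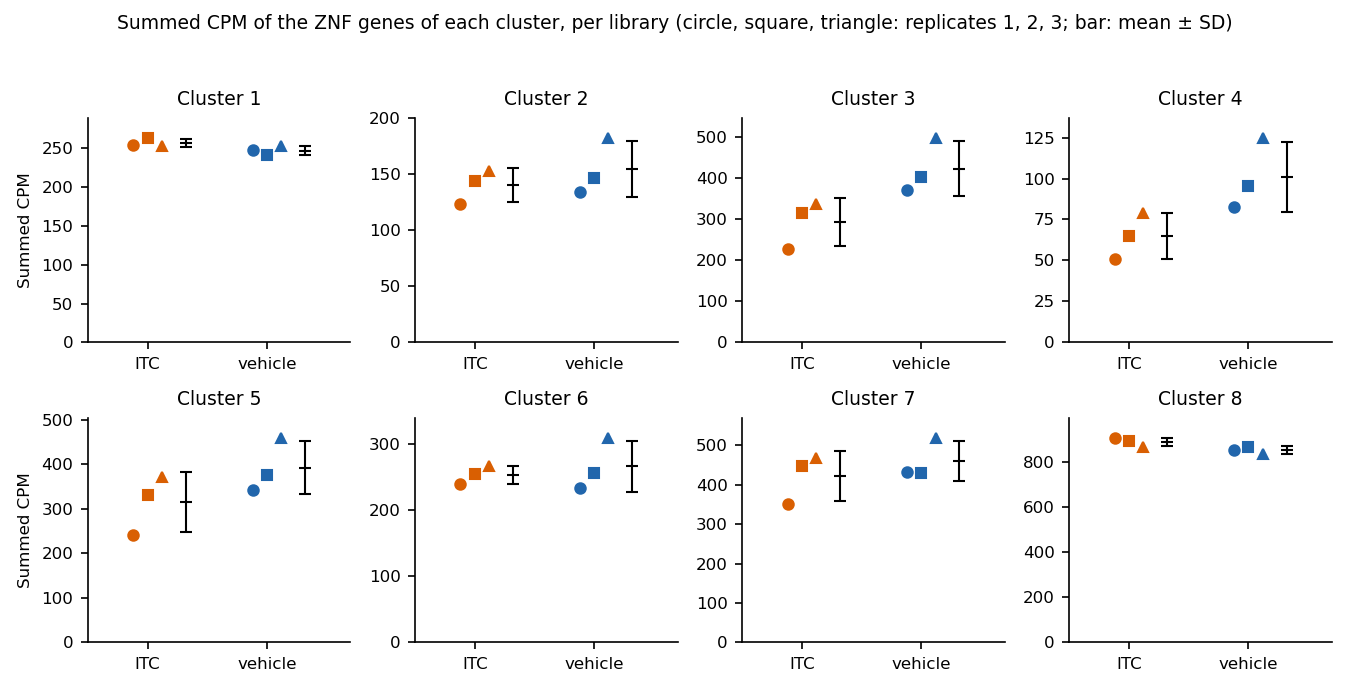
Summed CPM (vertical axis, linear from 0) of the genes of each cluster in each library, with ITC on the left and vehicle on the right of each panel. Circles, squares and triangles are replicates 1, 2 and 3, and bars are means ± SD. The groups are apart in clusters 3 and 4, with ITC below vehicle, they overlap in clusters 2, 5, 6 and 7, and in clusters 1 and 8 ITC lies just above vehicle.

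The presence of the octamer and the calls are set side by side as a description. Of 42 tested genes with the octamer 12 fell (28.6%) and 0 rose, with a median of -0.42. Of 159 without it 14 fell (8.81%) and 1 rose, with a median of -0.12. Of 26 with no window 5 fell (19.2%). Over all tested genes 19% fell. Without ITC replicate 1 the falls were 8 with the octamer and 6 without it, and without ITC replicate 2 they were 10 and 7. Without vehicle replicate 2 they were 11 and 9, and without ITC replicate 3, 5 genes without the octamer rose. The medians were -0.31 with the octamer and -0.01 without it when ITC replicate 1 was left out, and -0.32 and -0.06 when vehicle replicate 3 was left out. Within cluster 2, where both kinds of window occur, 3 of 14 tested genes with the octamer fell (median -0.32) and 1 of 5 without it (median -0.30). Presence of the octamer and membership of cluster 3 cannot be told apart, since all 25 of its windows hold it. Cluster 4, with a median of -0.63, had the octamer in 0 of 4 windows.

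**Figure D4:**
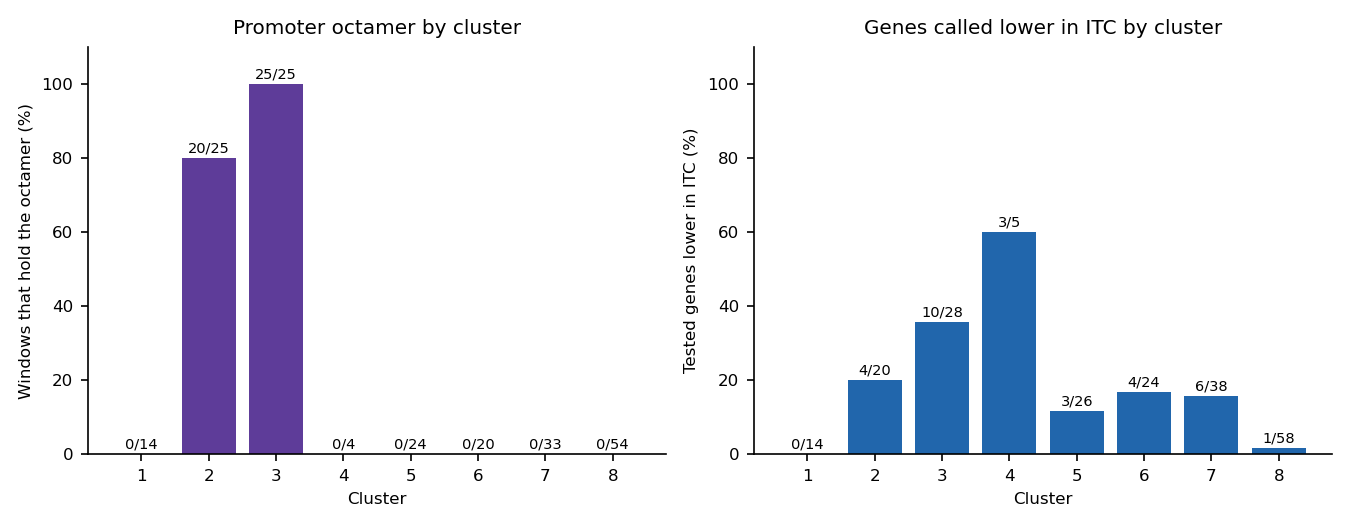
Left, share of upstream windows that hold the octamer (vertical axis, percent) in clusters 1 to 8 (horizontal axis). Right, share of tested genes that were lower in ITC (percent) in the same clusters. Labels above the bars give the counts. The octamer is in 25 of 25 windows of cluster 3 and 20 of 25 of cluster 2, and the share that fell is 10 of 28 in cluster 3, 3 of 5 in cluster 4 and 1 of 58 in cluster 8.

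Genes with and without a KRAB pattern were counted apart, and over all tested genes 19% fell. Of 188 tested genes with the KRAB pattern 24 fell (12.8%) and 0 rose, with a median of -0.19. Of 39 without it 7 fell (17.9%) and 1 rose, with a median of 0.03. By finger number, 8 of 58 genes with up to 9 fingers fell (median 0.01), 16 of 95 with 10 to 14 (median -0.22) and 7 of 74 with 15 or more (median -0.16). On the short arm 14 of 67 tested genes fell (20.9%), and on the long arm 17 of 160 fell and 1 rose (11.3% called). With ITC replicate 1 left out the falls were 12 of 191 genes with the KRAB pattern and 4 of 39 without it, with medians of -0.09 and -0.03, and 9 of 70 on the short arm and 7 of 160 on the long arm. That fit had 3 falls with up to 9 fingers, 7 with 10 to 14 and 6 with 15 or more. When ITC replicate 2 was left out, 10 genes of the long arm and 3 genes with up to 9 fingers fell. The median of genes with up to 9 fingers ranged from -0.10 to -0.00 without 1 library. Over all clusters, genes with little sequence in common with others showed a like count. Among the 181 tested genes with under 5% of their transcript windows shared with another gene, 26 fell and 1 rose. In cluster 3 the values were smaller under this limit. Of its 25 such genes 8 fell, 5 of them at least 2-fold, with a median of -0.44. The whole cluster had 10 falls of 28, 7 of them at least 2-fold, and a median of -0.58.

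The genes with the highest levels were not called in the fit of all 6 libraries. By mean FPKM the 6 highest were ZNF428, ZNF146, ZNF358, ZNF580, ZNF787 and ZNF579. ZNF428 averaged 45.1 ± 8.0 FPKM in ITC and 43.7 ± 3.0 in vehicle, and ZNF146, a protein made almost only of fingers, 22.1 ± 6.5 in ITC and 27.8 ± 7.7 in vehicle (SD, n = 3 each). In log2 fold change they were at 0.03 ± 0.16 and -0.35 ± 0.24. ZNF358 was at 0.15 ± 0.18, ZNF580 at 0.02 ± 0.18, ZNF787 at 0.28 ± 0.16 and ZNF579 at 0.44 ± 0.20, and the groups overlap in all 6. ZNF579 was called higher without ITC replicate 3 (log2 fold change 0.60, adjusted p = 0.0242).

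Level alone was compared with the calls, because low counts give wide errors. In genes with a mean of 2 to 8 CPM, 15.3% of 85 zinc finger genes were called, against 48.7% of 2004 protein-coding genes, and the median SE was 0.26 against 0.29. At 8 to 32 CPM the shares were 11.8% of 110 and 42.4% of 4106, with median SEs of 0.20 and 0.19. Falls made up all of these zinc finger calls. The protein-coding genes of the same levels had 30.1% and 24.3% lower and 18.5% and 18.1% higher in ITC. Below 2 CPM and from 32 CPM up the zinc finger genes had 3 of 15 and 3 of 17 called, against 33.2% and 41.2% of protein-coding genes.

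**Figure D5:**
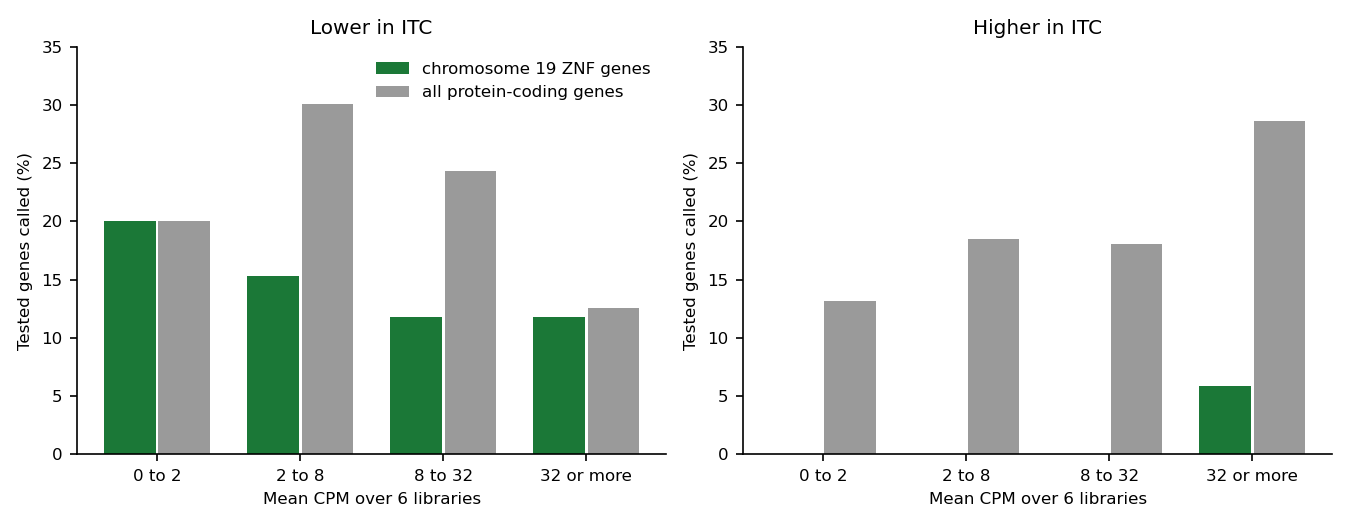
Share of tested genes called (vertical axis, percent) in 4 ranges of mean CPM over the 6 libraries (horizontal axis), lower in ITC on the left and higher in ITC on the right. Green bars are the chromosome 19 ZNF genes and grey bars are all protein-coding genes. Under 32 CPM no zinc finger gene was higher in ITC, against 13.1% to 18.5% of protein-coding genes.

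Zinc finger genes elsewhere and the neighbours of the clusters give the setting. Of 237 tested ZNF genes on other chromosomes 43 fell and 23 rose (27.8% called), with a median of -0.15, close to that of the chromosome 19 genes. Of these genes 20 fell without ITC replicate 1, with a median of -0.06, and without ITC replicate 2 or vehicle replicate 2, 14 and 12 rose. Of 750 other tested protein-coding genes of chromosome 19, 65 fell and 214 rose (37.2% called), with a median of 0.21. The rises were 137 without vehicle replicate 2, and the median was 0.10 without ITC replicate 1 and 0.13 without vehicle replicate 3. The 11 tested zinc finger genes of chromosome 19 under other names had 3 falls and 2 rises. Under scaling by library size the median of the other chromosome 19 genes was -0.03, and the ZNF genes on other chromosomes had 76 falls and 11 rises.

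The corepressors that KRAB proteins use were called no more often than all tested genes, of which 39.4% were called. By list, 16.7% of the TRIM28 and HP1 genes, 14.3% of the SETDB1 and HUSH genes and 33.3% of the NuRD genes were called. TRIM28, chosen for its role, averaged 326 ± 58 CPM in ITC and 283 ± 67 in vehicle (SD, n = 3 each) and was not called (log2 fold change 0.21 ± 0.20). Of 6 tested genes of the TRIM28 and HP1 list 1 fell, CBX1, an HP1 protein (-0.50 ± 0.16, adjusted p = 0.0191, and called without 1 library only where that was ITC replicate 3 or vehicle replicate 3), while CBX5 was at -0.00 ± 0.17. Of 7 genes of the SETDB1 and HUSH list 1 rose, MORC2, an ATPase that works with HUSH (0.67 ± 0.17, adjusted p = 0.00528), and ATF7IP, the partner of SETDB1, was at -0.10 ± 0.17. Of 12 NuRD genes 4 rose and 0 fell. They were the remodelers CHD3 (0.81 ± 0.17, adjusted p = 0.00142) and CHD4 (0.74 ± 0.20, adjusted p = 0.00755), with MBD2 (0.45 ± 0.14) and GATAD2A (0.48 ± 0.18), which were not called under upper quartile or library size scaling. With 1 library left out, MBD2 was called only without ITC replicate 1 or vehicle replicate 1, and GATAD2A only without ITC replicate 3 or vehicle replicate 1. HDAC2, the deacetylase with the highest level of those not called, was at -0.03 ± 0.16. Under library size scaling 2 NuRD genes rose and 1 fell.

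DNA methylation genes are listed because methylation also holds transposable elements silent. Of 4 tested genes 3 fell. UHRF1, which brings DNMT1 to newly copied DNA, averaged 3.60 ± 0.51 CPM in ITC and 30.0 ± 8.5 in vehicle (SD, n = 3 each), at -3.05 ± 0.24 (adjusted p = 1.36e-07). DNMT3B was at -1.60 ± 0.28 and DNMT3A at -0.45 ± 0.16, the last called without 1 library only where that was vehicle replicate 3, and DNMT1 was at -0.07 ± 0.18 and not called.

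Markers of dividing and of other cells moved between the same libraries. All 10 dividing cell markers fell, with a median of -4.99, and their sum was 104 to 113 CPM in ITC and 746 to 813 CPM in vehicle. Of 9 tested neuron markers 6 fell and 1 rose (sums 1412 to 1636 CPM in ITC and 1411 to 1705 in vehicle). Of 10 neural progenitor markers 7 fell and 2 rose (3374 to 4114 in ITC and 3306 to 4134 in vehicle). Like sums hide opposite moves. GAP43 averaged 1161 CPM in ITC and 335 in vehicle, while MAP2 averaged 238 and 700. Among progenitor markers VIM averaged 2317 and 1628, while NES averaged 664 and 1000. Of 10 astrocyte markers 7 fell and 1 rose (1529 to 1962 in ITC and 1726 to 2064 in vehicle). In that sum SOX9 averaged 1099 CPM in ITC and 611 in vehicle, while S100B averaged 196 and 403. All 10 astrocyte markers passed the filter on low counts in these cells, which are labelled as astrocytes. Of 6 tested oligodendrocyte lineage markers 3 fell and 3 rose (90.7 to 102 in ITC and 299 to 363 in vehicle), with MOG and SOX10 under the filter. Of 8 mesenchymal markers 3 fell and 2 rose (672 to 868 in ITC and 691 to 777 in vehicle). Of 4 microglia markers with a row, ITGAM was tested and rose, AIF1 had 0 counts in ITC, and the sums were 1.61 to 2.77 CPM in ITC and 0.603 to 0.650 CPM in vehicle. The part of these cells in the falls of the zinc finger genes was not tested.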

How the data were processed

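Polyadenylated RNA libraries (NEB chemistry, DNase on the column, per the labels' protocols) of 3 ITC and 3 vehicle cultures were grouped by their titles. The authors deposited whole-number counts per gene, FPKM values per the file headers, and log2 fold changes with p-values, which run vehicle over ITC per the file headers. The deposited fold changes and p-values were used only for the counts credited to the authors' table. GRCh38 (hg38) and DESeq2 are named in the submitters' processing notes. Aligner, counting tool and strand setting were not given in the sources used, so overlapping genes cannot be told apart by strand. There were 0 unmapped sample columns and 0 rows without a gene.

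The fit used the counts of the whole table and edgeR 4.0.16 (R 4.3.3, filterByExpr, TMM, quasi-likelihood, no covariate), with Benjamini-Hochberg adjustment over all tested genes at 0.05. The SE is the log2 fold change over the square root of F, and 95% intervals use the t quantile at the degrees of freedom of the test. Intervals cover the spread between these cultures. The code was tested on simulated counts. The genes, clusters, lists and letter patterns were chosen with earlier results of these data known. Alternatives were DESeq2 1.42.0, limma-voom (limma 3.58.1), other scalings, filters, cluster gaps and thresholds, a replicate block and leaving out each library. All 239 genes had identical coordinates in GENCODE 29. Of these, 24 overlap other genes in over 25% of exon bases, 55 share at least 5% of their 100-base transcript windows with another gene and 17 over 25%. A protein table was not used here, so proteins were translated from GENCODE 29 transcripts. Upstream windows came from RefSeq on GRCh38.p14. Named genes were the 10 largest rises and falls among calls averaging 1 CPM or more without overlap of the groups; the called gene with the smallest p in each cluster and direction; the 6 highest by FPKM; and, per corepressor list, the called genes and the uncalled gene with the highest CPM. Figures used matplotlib 3.10.9 in Python 3.11.15.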

Additional observations from a re-analysis of the deposited data

How the results depend on the processing

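The count of 31 falls was 46 under upper quartile scaling, 65 with library size only, 52 with a replicate block, 11 at an adjusted p under 0.01 and 16 to 39 without 1 library. The count of 1 rise was 0 under upper quartile scaling, library size only, no filter on low counts and the stricter threshold, 2 with limma-voom, 9 with the block and 0 to 5 without 1 library. The median of -0.16 was -0.39 with library size only. Cluster medians with library size only were -0.20 in cluster 1, -0.80 in 3, -0.85 in 4, -0.58 in 5 and -0.22 in 8, and under upper quartile scaling -0.12 in cluster 1 and -0.14 in 8. These scalings move the median of all genes to -0.24 and -0.16. Without the filter the median of cluster 1 was -0.068. Breaking clusters at 2 Mb joined neighbours and gave -0.20 for the group holding cluster 1 and -0.37 for that holding cluster 4, and breaking at 0.5 Mb gave -0.070 for the larger piece of cluster 8. The median of cluster 3 ranged from -0.65 to -0.33 without 1 library. Of 911 values of 57 named genes under these settings, 785 kept their direction and side of the threshold, 110 lost the call, 16 gained one and 0 reversed.

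Same-numbered libraries deviated together with correlations of 0.268, 0.00733 and 0.384, and ITC replicate 2 correlated best with vehicle replicate 1 (0.0374). The labels also do not say that the replicate numbers mark the batches. For both reasons the numbers were not taken to pair the cultures, and the fit without a block ignores any pairing by batch. The block raised the calls over all tested genes to 8416. With it ZNF91, ZNF93 and ZNF146 were called lower (adjusted p = 0.0198, 0.0435 and 0.0166), and ZNF579 and ZNF274 higher (0.00783 and 0.0348). The cause of these shifts was not tested. Depth limits the genes of lowest level most: the median SE was 0.43 below 2 CPM and 0.17 from 32 CPM up.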
